A study of Mus musculus with 72 samples.

Results

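The calcium arm of the response to gastrin-releasing peptide (GRP) was followed through 10 genes of the mouse count table, found by symbol among 50600 genes. They encode 3 subunits of calcineurin (Ppp3ca, Ppp3cb and Ppp3r1), 4 NFAT transcription factors (Nfatc1, Nfatc2, Nfatc3 and Nfatc4) and 3 regulators of calcineurin (Rcan1, Rcan2 and Rcan3). The 72 RNA-seq libraries come from 6 mouse melanoma lines, each with 4 treatments and 3 replicates. Cells were held for 18 h in medium with 0.5% serum and then treated for 4 h with vehicle (mock, 0.1% DMSO), 10 nM GRP, 1 µM RC-3095 (RC, an antagonist of the GRP receptor GRPR) or GRP and RC together.

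All 6 lines carry Tyr::NRASQ61K/°, an oncogenic NRAS driven by the tyrosinase promoter. Lines 1057 and 1064 are female, lack Cdkn2a and carry Tyr::CreA/° with Cdh1dF/dF, and they express their own Grpr. Line 1181 is labelled male, with the same Cdkn2a and Cdh1 labels but no Cre, and line 1014 is labelled female with no further allele on its label. Each of these was transfected with CMV::tGFP (1181-Ctrl and 1014-Ctrl) or with CMV::Grpr/tGFP (1181-Grpr and 1014-Grpr) and selected with geneticin, so that their receptor is driven by a viral promoter. The lines came from melanomas of transgenic mice. The study describes its culture experiments as biological replicates, but the labels do not tell which libraries shared a culture or a day, and p-values measure the spread between these libraries. Sex, genotype and line cannot be told apart between lines, and neither, in bulk RNA, can fewer cells that express a gene and less RNA per cell.

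GRPR is a Gq-coupled receptor whose activation releases calcium from intracellular stores. Calcium and calmodulin switch on calcineurin, a phosphatase made of a catalytic and a regulatory subunit, which strips phosphates from NFAT proteins and lets them enter the nucleus. RCAN proteins bind calcineurin and restrain it, and Rcan1 is itself a textbook NFAT target, through a short isoform with its own promoter. NFAT proteins are regulated largely by where they sit in the cell, which RNA-seq does not measure.

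Library totals ran from 19512882 to 46862053 counted reads. All 7 melanocyte markers examined had a median of at least 10 CPM (counts scaled to the size of the library), although Tyrp1 was at 0.838 CPM in its lowest library. By contrast, 4 of 5 leukocyte and 3 of 3 epithelial markers stayed under 1 CPM in every library. The exceptions were Lyz2, at 0.496 to 51.8 CPM, the endothelial gene Cdh5, at up to 6.59 CPM while Pecam1 stayed under 1 CPM, and low fibroblast genes, at a summed 0.615 to 37.2 CPM, whose part in the results was not tested. Cdh1 averaged at most 0.0641 CPM in any treatment of 1057 and 1064, under the 0.154 CPM that 3 counts are worth in the shallowest library, and 11.1 to 20.8 CPM in the 1181 lines, which carry the same Cdh1 label (14.3 to 20.8 CPM without the 1181-Grpr library described next). Grpr was at 273 to 275 CPM in mock-treated 1057 cells and at 786 to 1280 CPM in 1064, against 107 to 141 CPM in 1014-Grpr and 8.49 to 17.7 CPM in 1181-Grpr. It was at most 0.0915 CPM in the control lines apart from 1 library.

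That library, replicate 2 of the mock-treated 1014-Ctrl cells, went against its label, with Grpr at 48.1 CPM and the Y-linked gene Ddx3y at 64.2 CPM. The library labelled 1181-Grpr, GRP+RC, replicate 2 did so too, with neither Grpr nor Ddx3y detected, whereas Ddx3y was at 37.1 to 63.3 CPM in the other libraries of 1181-Grpr. The first held Cdh1 at 22.7 and Xist, the X-inactivation RNA, at 172 CPM, against 1.87 to 5.13 and 583 to 1051 CPM in the other libraries of 1014-Ctrl. The second held them at 4.6 and 794 CPM, against 9.74 to 25.3 and 193 to 248 CPM in the other libraries of 1181-Grpr. On Ddx3y, Cdh1 and Xist each lay within or nearer the range of the line named on the other's label, and whether they were exchanged was not tested. Both were kept as labelled. The tests on members that turn on them are given with and without them, while levels, shares and figures include them unless stated. In the first, Rcan1 was at 34.7 CPM, against 18.9 and 19.2 CPM in the other mock libraries of 1014-Ctrl, and Nfatc2 was at 176 CPM against 366 and 329 CPM. In the second, Rcan1 was at 18.0 CPM against 26.4 and 29.95 CPM, and Nfatc2 was at 363 CPM against 196 and 164 CPM.

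The other 11 libraries of 1181-Grpr also stood apart from their label. They held both Xist (193 to 248 CPM) and Ddx3y, whereas the 12 libraries of 1181-Ctrl held Ddx3y at 55.9 to 88.1 CPM and Xist at no more than 0.641 CPM. The 2 versions of line 1181 thus differed in more than the receptor, and what this means for the cells of 1181-Grpr was not tested. It touches every result on 1181-Grpr given here, and the mean effect over the GRPR lines is given with and without that line.

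On GRCm38 (GENCODE M21), Rcan1 (ENSMUSG00000022951) spans chr16:92391953-92470867 on the minus strand, Rcan3 (ENSMUSG00000059713) chr4:135412308-135433853 on the minus strand and Rcan2 (ENSMUSG00000039601) chr17:43801351-44039516 on the plus strand. Nfatc2 (ENSMUSG00000027544) spans chr2:168476410-168601657 on the minus strand, Nfatc3 (ENSMUSG00000031902) chr8:106058840-106130537 on the plus strand and Nfatc4 (ENSMUSG00000023411) chr14:55823144-55833943 on the plus strand. Ppp3ca (ENSMUSG00000028161) spans chr3:136670124-136937727 and Ppp3r1 (ENSMUSG00000033953) chr11:17159263-17200375, both on the plus strand, and Ppp3cb (ENSMUSG00000021816) spans chr14:20499364-20546573 on the minus strand. Nfatc1 is ENSMUSG00000033016. Of the exon bases, 14.3% of Ppp3r1 are shared with Wdr92 on the same strand and 1.87% of Nfatc3 with Esrp2 on the opposite strand, and 44 bases of Rcan3 with Mir700, so reads there could have been counted for either gene.

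Rcan1 and Nfatc2 are the members that carry the clearest changes below, and each has 2 windows among the RefSeq promoters used. These are shown from 250 bases before to 50 bases after each start (GRCm38.p6, minus strand, 5′ to 3′). They need not cover every annotated start, and the GENCODE span of Rcan1 begins upstream of both its windows. Capitals mark the NFAT core GGAAA, the cyclic AMP response element TGACGTCA and the AP-1 site TGACTCA, each searched on both strands, where GGAAA read on the other strand appears as its reverse complement.
Rcan1 upstream start, chr16:92466120-92466419: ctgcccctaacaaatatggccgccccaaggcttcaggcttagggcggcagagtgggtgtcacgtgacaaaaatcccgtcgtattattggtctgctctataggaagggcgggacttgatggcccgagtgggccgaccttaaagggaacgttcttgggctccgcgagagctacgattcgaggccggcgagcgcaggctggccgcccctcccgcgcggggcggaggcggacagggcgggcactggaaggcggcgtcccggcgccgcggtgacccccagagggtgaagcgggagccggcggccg
Rcan1 downstream start, chr16:92400029-92400328: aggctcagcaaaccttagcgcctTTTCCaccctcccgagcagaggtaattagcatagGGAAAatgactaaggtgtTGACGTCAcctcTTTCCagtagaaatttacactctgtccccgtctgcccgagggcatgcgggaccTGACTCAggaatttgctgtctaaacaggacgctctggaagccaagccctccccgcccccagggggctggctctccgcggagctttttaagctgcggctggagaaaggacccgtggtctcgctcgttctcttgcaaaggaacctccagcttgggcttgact
Nfatc2 upstream start, chr2:168601608-168601907: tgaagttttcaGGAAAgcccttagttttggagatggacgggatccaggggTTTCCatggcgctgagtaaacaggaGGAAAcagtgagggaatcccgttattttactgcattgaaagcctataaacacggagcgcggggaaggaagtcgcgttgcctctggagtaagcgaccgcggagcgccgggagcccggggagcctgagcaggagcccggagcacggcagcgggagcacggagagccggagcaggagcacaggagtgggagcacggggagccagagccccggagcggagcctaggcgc
Nfatc2 downstream start, chr2:168590316-168590615: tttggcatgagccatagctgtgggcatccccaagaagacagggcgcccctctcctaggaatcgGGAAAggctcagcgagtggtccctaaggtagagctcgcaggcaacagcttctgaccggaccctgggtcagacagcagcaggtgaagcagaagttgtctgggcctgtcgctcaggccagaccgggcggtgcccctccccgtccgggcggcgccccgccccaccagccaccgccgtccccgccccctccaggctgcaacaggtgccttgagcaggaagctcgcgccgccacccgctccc
The downstream Rcan1 window, 66.1 kb from the upstream one, held 3 NFAT cores, 1 cyclic AMP response element and 1 AP-1 site, and the upstream window held none of these. The Nfatc2 windows held 3 and 1 NFAT cores and neither of the other motifs. Among 32851 promoter windows of the same length, 61.3% held GGAAA, 1.79% the cyclic AMP response element and 5.2% the AP-1 site, and 9 windows (0.0274%) held all 3. In all, windows were used for 8 of the 10 members, 13 windows together, and none was used for Nfatc1 or Ppp3ca. A match is a description of the letters, and counts per gene do not tell which Rcan1 start was in use.

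At rest, the 3 calcineurin subunits among the members were abundant and differed least between lines. In TPM, which corrects for gene length, the regulatory subunit Ppp3r1 had the highest mean of the 10 members in 4 lines, from 79.9 ± 6.4 TPM in 1064 to 125 ± 6.6 TPM in 1181-Ctrl (SD, n = 3), and in 1014-Grpr and 1014-Ctrl Nfatc2 stood at 128 ± 12 and 101 ± 35 TPM (121 ± 7.0 TPM, n = 2, in 1014-Ctrl without the library that went against its label). Of the summed TPM of the catalytic members Ppp3ca and Ppp3cb, Ppp3ca made up 61.1% in 1064 and 37.3% in 1014-Grpr. The related Ppp3cc, not a member, was left out of this sum. Nfatc2 was the main NFAT RNA, at 69.6% to 78.8% of the NFAT family TPM in 5 lines, that library included. In 1057 it made up 49.9% ± 0.23, next to 43.1% for Nfatc3. Nfatc1 averaged 3.22 to 8.88 TPM.

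The RCAN family divided between Rcan1 and Rcan3, with Rcan1 at 70.9% ± 3.6 of its TPM in 1064 and 29.3% ± 3.2 in 1014-Grpr. Rcan2 had 0 to 8 counts in a library and passed the filter on low counts in none of the lines. Nfatc4 had 0 to 36 counts and passed in 1057 and 1064 alone, where it was at 0.655 and 0.401 CPM at rest. The other 8 members passed in all 6 lines.

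**Figure D1:**
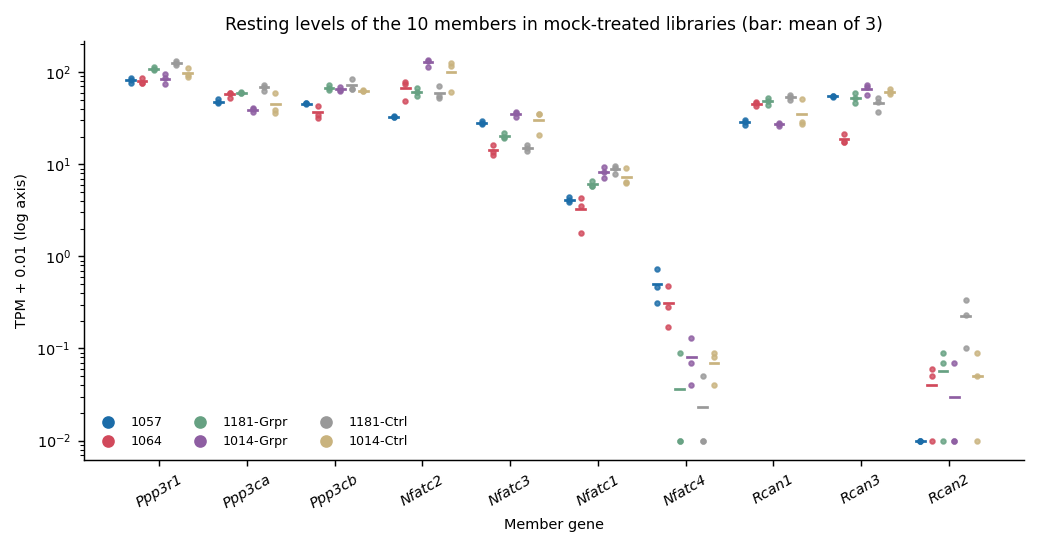
Resting level of each of the 10 members in mock-treated cells, in TPM plus 0.01 on a log axis, with a point per library and a bar at the mean of 3, coloured by line. Nfatc2 in 1057 (32.9 TPM) sits below its level in the other 5 lines, and Nfatc4 and Rcan2 lie below 1 TPM throughout.

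Between lines, the resting level of Rcan1 differed 2.01 times, with means of 37.4 CPM in 1064, 34.7 in 1181-Ctrl, 32.5 in 1181-Grpr, 24.3 in 1014-Ctrl, 24.0 in 1057 and 18.6 in 1014-Grpr. The first 3 lines overlapped one another, and without the library that went against its label 1014-Ctrl fell to 19.1 CPM and overlapped only 1014-Grpr. Nfatc2 differed 3.2 times, from 370 CPM in 1014-Grpr through 290 in 1014-Ctrl, 229 in 1064, 172 in 1181-Grpr and 163 in 1181-Ctrl to 116 in 1057. Only the last step, to 1057, had no overlap. Without that library 1014-Ctrl was at 348 CPM, and the step from 1014-Ctrl to 1064 had no overlap either.

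Rcan3 was at 93.1 CPM in 1057, 92.3 in 1014-Grpr, 86.0 in 1014-Ctrl, 72.5 in 1181-Grpr, 60.6 in 1181-Ctrl and 31.1 in 1064, where its 3 libraries lay below all others. Nfatc3 was at 112 CPM in 1014-Grpr, 111 in 1057, 97.5 in 1014-Ctrl, 63.8 in 1181-Grpr, 54.0 in 1064 and 45.5 in 1181-Ctrl, and each of the last 3 lines stood apart from its neighbours once the library was left out. Nfatc1 differed 2.21 times between lines, Ppp3ca 1.77 times, Ppp3cb 1.56 times and Ppp3r1 1.40 times.

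The transfected receptor without added GRP was compared with the empty vector. In the comparison of mock-treated 1181-Grpr with 1181-Ctrl, 9.73% of genes passed an adjusted p under 0.05 in edgeR's quasi-likelihood test and no member did, and 2 of 9 members tested had an unadjusted p under 0.05. Nfatc3 came closest, at 67.3, 61.6 and 62.6 CPM in 1181-Grpr against 47.7, 46.8 and 42.1 CPM in 1181-Ctrl, a log2 difference of 0.50 ± 0.15 (SE, edgeR adjusted p = 0.056). Its groups did not overlap. Without the 2 libraries, neither of which is in either group, it passed (0.50 ± 0.083, edgeR adjusted p = 0.00059), when 16.3% of genes did. It also passed with a replicate block (edgeR adjusted p = 0.042). In this fit of mock libraries the block was the replicate number shared between lines, not a pairing within a line. Whether same-numbered libraries of different lines belong together was not tested, and nothing further is drawn from that value. Xist averaged 206 CPM in the mock libraries of 1181-Grpr and 0.351 CPM in those of 1181-Ctrl, and the part in the Nfatc3 value of whatever else sets these 2 lines apart was not tested. In 1014-Grpr against 1014-Ctrl, 0.0195% of genes and no member passed, and 0.253% and no member without the library that went against its label, with 0 members at an unadjusted p under 0.05 in both fits. Leaving it out moved Rcan1 from a log2 difference of -0.37 ± 0.18 to -0.03 ± 0.12 (edgeR adjusted p = 0.50 and 1) and Nfatc2 from 0.36 ± 0.22 to 0.10 ± 0.16 (0.59 and 1).

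GRP moved the calcineurin and NFAT genes in 2 directions in 1057. Rcan1, Ppp3r1 and Ppp3ca rose, and Nfatc2, Nfatc3 and Rcan3 fell, so that 6 of 9 members tested passed, where 52.7% of all genes did. Nfatc2 had the largest change, to 0.644 of its mock level, and no member changed beyond a log2 value of 1 in any line. The median log2 change of the members was -0.04 against -0.01 for all genes.

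Rcan1, which restrains calcineurin, was at 25.8, 24.1 and 22.1 CPM in the mock libraries of 1057 and at 28.3, 29.6 and 27.0 CPM after GRP. The groups did not overlap, and the rise was 1.20-fold (log2 0.26 ± 0.056, edgeR adjusted p = 0.00027). In 1014-Grpr it went from 19.5, 17.9 and 18.4 CPM to 24.4, 28.2 and 25.5 CPM, with no overlap, a 1.41-fold rise (0.50 ± 0.084, edgeR adjusted p = 0.00091). In 1064 it went from 32.9, 38.2 and 40.9 CPM to 40.5, 76.3 and 51.6 CPM. Here replicate 2 was far above the others and the lowest GRP library fell within the mock range, and the difference of 0.59 ± 0.20 did not pass (edgeR adjusted p = 0.11).

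Same-numbered libraries of 1064 and of 1014-Grpr deviated together from their group means, so a fit with the replicate number as a block is given for them. With it, Rcan1 rose in 1064 by a log2 value of 0.56 ± 0.13 (edgeR adjusted p = 0.0086), and in 1014-Grpr its value was 0.50 ± 0.071 (2.1e-06). In 1181-Grpr the mock libraries were at 28.5, 35.7 and 33.2 CPM and the GRP libraries at 28.5, 34.9 and 32.9 CPM. The groups overlapped throughout, with a difference of -0.02 ± 0.17 (edgeR adjusted p = 1), or -0.02 ± 0.12 without the library that went against its label.

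Rcan3, a relative of Rcan1 with the same calcineurin-binding motif, moved the other way. It fell in 1057 from 96.0, 94.1 and 89.1 CPM to 84.0, 79.9 and 79.0 CPM (log2 -0.18 ± 0.036, edgeR adjusted p = 0.00017). In 1064 it was at 33.4, 29.2 and 30.6 CPM before and 23.7, 25.2 and 26.1 CPM after GRP, and in 1014-Grpr at 98.1, 102 and 76.8 CPM before and 76.2, 75.4 and 59.8 CPM after. The groups were apart in all 3 lines, the changes of -0.31 ± 0.088 and -0.38 ± 0.14 did not pass (edgeR adjusted p = 0.062 and 0.065), and both passed with the block (-0.31, 0.0045 and -0.37, 1.05e-08).

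Nfatc2 (NFAT1), the most abundant NFAT RNA of these cells, fell in 1057 from 118, 113 and 117 CPM to 72.7, 76.1 and 71.1 CPM. All GRP libraries lay below all mock libraries (log2 -0.64 ± 0.034, edgeR adjusted p = 5.8e-15). In 1064 it fell from 253, 257 and 177 CPM to 120, 143 and 123 CPM, again without overlap (-0.83 ± 0.16, edgeR adjusted p = 0.015), a call lost without replicate 1 (0.19) or replicate 2 (0.20) and held by the block (0.00047). In 1014-Grpr, where its resting level was highest, it was at 391, 397 and 323 CPM before and 390, 344 and 306 CPM after GRP. These groups overlapped, and the difference of -0.08 ± 0.11 did not pass (edgeR adjusted p = 0.62, with the block 0.079).

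Nfatc3 (NFAT4) fell in 1057 from 113, 107 and 112 CPM to 92.9, 90.0 and 91.9 CPM (log2 -0.25 ± 0.035, edgeR adjusted p = 8.7e-07). In 1064 it fell from 59.0, 51.7 and 51.3 CPM to 43.2, 40.4 and 43.2 CPM (-0.35 ± 0.089, edgeR adjusted p = 0.045), a call lost without any 1 of the replicates (0.12 to 0.27) and held by the block (0.00065). In 1014-Grpr it went from 117, 105 and 115 CPM to 103, 93.5 and 96.9 CPM, which just missed the threshold (-0.19 ± 0.065, edgeR adjusted p = 0.0503, with the block 0.00018). The GRP libraries lay below the mock libraries in all 3 lines. In 1181-Grpr, Nfatc2 and Nfatc3 differed by -0.02 ± 0.24 and -0.01 ± 0.17.

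Nfatc1 (NFAT2), a factor known for amplifying its own expression, showed no such change, at 11.1, 9.93 and 9.46 CPM before and 10.1, 9.83 and 9.19 CPM after GRP in 1057 (log2 -0.04 ± 0.078, edgeR adjusted p = 0.68). In 1014-Grpr it differed by -0.20 ± 0.22 (edgeR adjusted p = 0.53), and it passed there with the block (-0.20 ± 0.072, 0.023). Nfatc4 differed by -0.43 ± 0.35 in 1057 and 0.29 ± 0.58 in 1064 and did not pass.

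Of the calcineurin subunits, the regulatory subunit Ppp3r1, which binds calcium, rose in 1057 from 91.9, 80.9 and 91.0 CPM to 104, 97.4 and 107 CPM (log2 0.25 ± 0.045, edgeR adjusted p = 5.7e-05). The groups did not overlap. In 1064 it was at 76.2, 79.7 and 97.8 CPM before and 94.5, 113 and 107 CPM after GRP, and in 1014-Grpr at 76.5, 66.1 and 81.8 CPM before and 90.7, 78.6 and 95.2 CPM after. The groups overlapped in both lines, the differences of 0.32 ± 0.10 and 0.25 ± 0.13 did not pass (edgeR adjusted p = 0.091 and 0.17), and every same-numbered pair was higher after GRP, so that both passed with the block (0.0045 and 2.3e-05).

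The catalytic subunit Ppp3ca rose in 1014-Grpr from 112, 101 and 105 CPM to 124, 121 and 121 CPM, without overlap (log2 0.21 ± 0.058, edgeR adjusted p = 0.015), a call lost without replicate 2 (0.15) or replicate 3 (0.084) and held by the block (3e-05). In 1057 its rise of 0.09 ± 0.033 was small (edgeR adjusted p = 0.026), from 156, 155 and 165 CPM to 169, 160 and 169 CPM with overlapping groups, and it was lost without replicate 1 (0.25) or replicate 2 (0.051). In 1064 replicate 2 again stood out, at 285 CPM after GRP beside 175 and 226 CPM, with mock libraries at 163, 195 and 205 CPM (0.29 ± 0.18, edgeR adjusted p = 0.41, with the block 0.017). Ppp3cb, the other catalytic subunit among the members, differed by 0.02 ± 0.034 in 1057, 0.01 ± 0.11 in 1064 and -0.04 ± 0.051 in 1014-Grpr. It did not pass with or without the block.

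**Figure D2:**
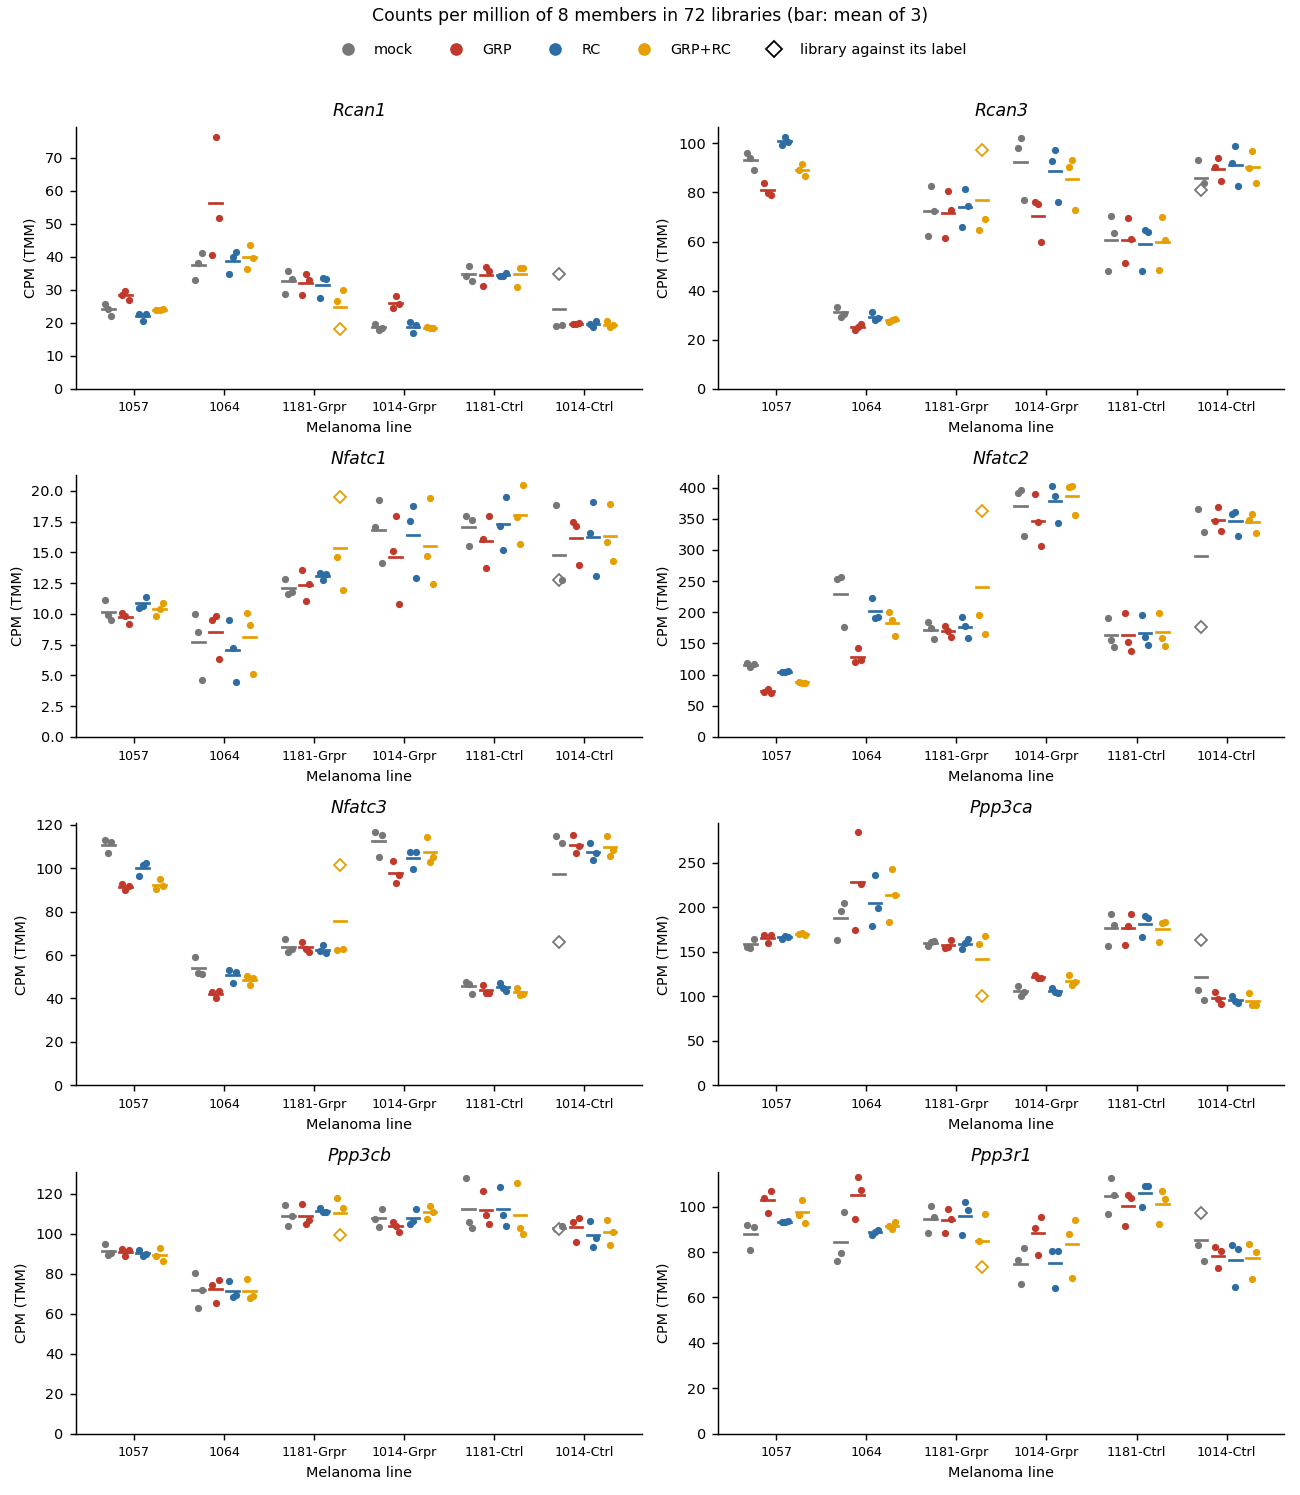
CPM of the 8 members that passed the filter in all lines, a point per library and a bar at the mean of 3, by line and treatment (grey mock, red GRP, blue RC, orange GRP+RC). The red points of Nfatc2 lie below the grey ones in 1057 and 1064, those of Rcan1 above them in 1057 and 1014-Grpr, and the 2 diamonds are the libraries that went against their labels.

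In counts, 2 of 9 members passed in 1064 and both fell (Nfatc2 and Nfatc3), where 6.29% of genes passed, and 2 of 8 in 1014-Grpr and both rose (Rcan1 and Ppp3ca), where 29% did. With the block, 3 rose and 3 fell in 1064 (Rcan1, Ppp3ca and Ppp3r1 against Rcan3, Nfatc2 and Nfatc3, background 43.5%) and 3 rose and 3 fell in 1014-Grpr (background 53.8%), where Nfatc1 took the place of Nfatc2 among those that fell. The members passed about as often as genes at large in 1057, and these counts say nothing particular of them. In 1064, no member passed without replicate 1 or without replicate 2, and 1 passed without replicate 3.

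No member passed in 1181-Grpr, 1181-Ctrl or 1014-Ctrl, with edgeR or DESeq2, and neither did any other gene with edgeR (0% in each). At an unadjusted p under 0.05 there were 44, 36 and 558 genes in these lines and no member. In 1181-Ctrl the mock libraries had Rcan1 at 34.1, 37.3 and 32.7 CPM and the GRP libraries at 31.2, 36.7 and 35.7 CPM. In 1014-Ctrl the GRP libraries were at 19.5, 19.4 and 19.8 CPM, against 18.9, 34.7 and 19.2 CPM in the mock libraries, a log2 difference of -0.31 ± 0.20 and, without the library of 34.7 CPM, 0.05 ± 0.068.

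**Figure D3:**
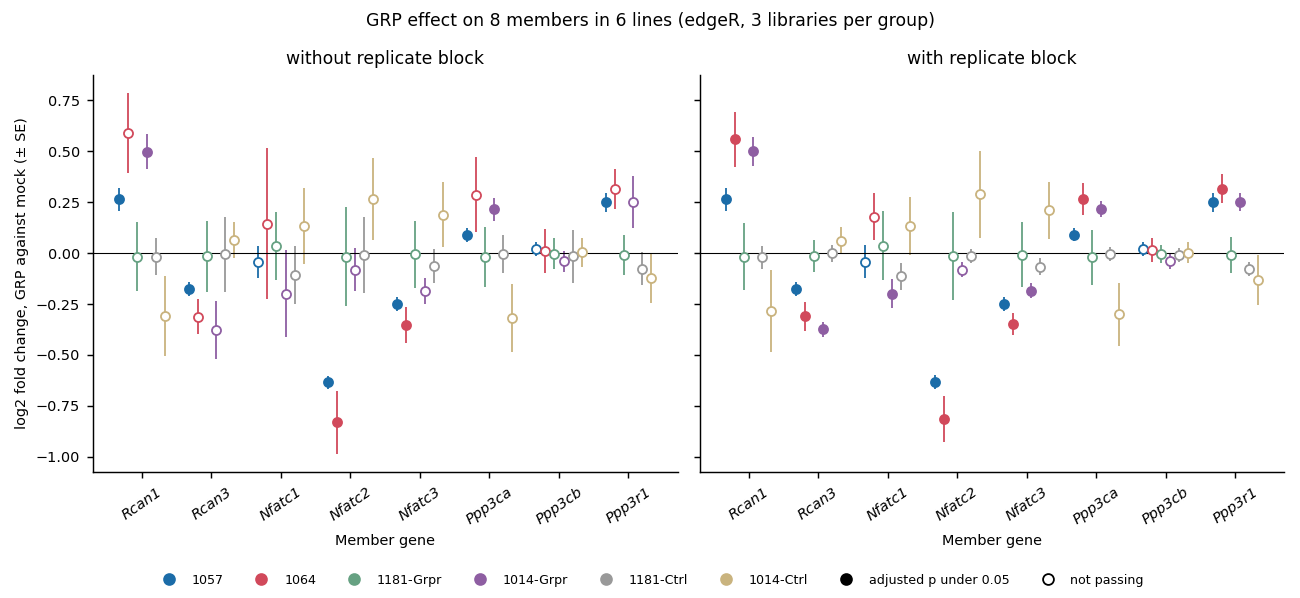
Log2 fold change of GRP against mock (± SE) for 8 members, a point per line, without the replicate block on the left and with it on the right, where filled points passed an adjusted p under 0.05. Rcan1, Ppp3r1 and Ppp3ca lie above 0 and Nfatc3 and Rcan3 below it in 1057, 1064 and 1014-Grpr, and the points of 1181-Grpr and 1181-Ctrl lie near 0.

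Averaged over the 4 lines with GRPR, Rcan1 (log2 0.33 ± 0.074, edgeR adjusted p = 0.00072) and Ppp3r1 (0.20 ± 0.054, 0.0045) rose, and Nfatc2 (-0.39 ± 0.081, 0.00026), Nfatc3 (-0.20 ± 0.050, 0.0023) and Rcan3 (-0.22 ± 0.063, 0.0071) fell. These are 5 of 9 members, with 28.4% of genes passing. Ppp3ca (0.14 ± 0.064) did not pass (edgeR adjusted p = 0.10), but did so with the block (0.013), when 45% of genes passed. It also passed without the 1181-Grpr library that went against its label (edgeR adjusted p = 0.039), which is in none of the groups averaged. Without replicate 1 of each line, only Rcan1 and Nfatc2 passed. Without 1181-Grpr, an alternative chosen after seeing the data, these 5 and Ppp3ca passed over the other 3 lines, where 37.6% of genes did, with Rcan1 at 0.44 ± 0.075 and Nfatc2 at -0.52 ± 0.066 (edgeR adjusted p = 2.4e-05 and 3.4e-07). Over the 2 control lines no member and 0% of genes passed, with 672 genes at an unadjusted p under 0.05.

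Whether the GRP effect differed with the receptor was tested within each transfected line. In 1014-Grpr minus 1014-Ctrl, the Rcan1 effect was larger by a log2 value of 0.80 ± 0.22 (edgeR adjusted p = 0.018), 1 of 8 members, where 13.6% of genes passed. Without the 2 libraries that went against their labels the difference was 0.46 ± 0.11 (edgeR adjusted p = 0.0049). It missed the threshold without replicate 1, 2 or 3 of both lines (1.04, 0.35 and 0.96, edgeR adjusted p = 0.074, 0.060 and 0.097).

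Ppp3ca (0.53 ± 0.18, edgeR adjusted p = 0.057) and Rcan3 (-0.44 ± 0.18, 0.0998) came next in this comparison. With the block, Rcan1 (0.018), Ppp3ca (0.031) and Ppp3r1 (0.045) differed upwards and Rcan3 (0.00041) downwards, with 26.7% of genes passing. Without the 2 libraries and with the block, Ppp3ca (0.26 ± 0.053) and Ppp3r1 (0.20 ± 0.063) had smaller differences and Nfatc3 (-0.17 ± 0.050) passed as well (edgeR adjusted p = 0.00013, 0.012 and 0.0046). In 1181-Grpr minus 1181-Ctrl no member and 0% of genes passed, with 57 genes at an unadjusted p under 0.05. Grpr itself was at 8.49 to 17.7 CPM in mock-treated 1181-Grpr, lower than in the other GRPR lines. After GRP it was at 19.1 to 79.9 CPM there, without overlap, but the log2 difference of 1.97 ± 1.13 did not pass. Grpr rose after GRP in 1014-Grpr (2.10 ± 0.18, edgeR adjusted p = 8.4e-06). It fell in 1057 (-0.40 ± 0.035, 2.1e-10) and 1064 (-1.01 ± 0.16, 0.0079). The part of the receptor level in the absence of a detected response in 1181-Grpr was not tested.

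For the effect in 1064 minus that in 1057 no member passed (0.939% of genes did), with 0 members and 1493 genes at an unadjusted p under 0.05. For 1181-Grpr and 1014-Grpr minus 1057, where 3.83% and 2.54% of genes passed, the Nfatc2 effect differed by 0.63 ± 0.23 and 0.57 ± 0.23 (edgeR adjusted p = 0.13 and 0.24). Both differences passed without the 1181-Grpr library that went against its label (0.63 ± 0.16 and 0.57 ± 0.16, edgeR adjusted p = 0.011 and 0.030), when 5.36% and 3.64% of genes did. They also passed with the block (edgeR adjusted p = 0.017 and 0.040). That library, treated with GRP+RC, is in none of the groups compared, and leaving it out changed the SE but not the differences as rounded here. The fall of Nfatc2 in 1057 was thus larger than in these 2 lines in those fits. The comparisons share the libraries of 1057.

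RC-3095 brought Rcan1 back to its mock level in 1057 and 1014-Grpr. In 1057, Rcan1 was at 23.8, 23.9 and 24.0 CPM with GRP and RC together, below all 3 GRP libraries and within the mock range (log2 -0.27 ± 0.057 against GRP, edgeR adjusted p = 0.00071). In 1014-Grpr it was at 18.6, 18.5 and 18.4 CPM, again below every GRP library (-0.51 ± 0.085, edgeR adjusted p = 0.0021). Of the log2 effect of GRP, -0.69% and -2.3% were left in these lines. In 1064, where the difference from GRP passed only with the block, 13.8% was left in that fit (-0.48 ± 0.13 against GRP, edgeR adjusted p = 0.033). The share left is the GRP+RC effect against mock as a percentage of the GRP effect against mock, so any effect of RC alone enters it. With RC alone, Rcan1 was at 20.6 to 22.7 CPM in 1057, overlapping the mock libraries but below every GRP+RC library. In 1014-Grpr it was at 16.7 to 20.0 CPM with RC alone, around the GRP+RC libraries. Whether GRP still raised Rcan1 in cells given RC was not tested.

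Nfatc2 came back in part and Nfatc3 stayed at its GRP level in 1057. There, Nfatc2 was at 88.8, 87.3 and 86.7 CPM with GRP and RC, above the GRP libraries (log2 0.24 ± 0.034, edgeR adjusted p = 5.1e-06) and below the mock libraries (-0.40 ± 0.033, 1.4e-10), so 62.7% of the effect was left. Nfatc3 was at 90.7, 95.0 and 91.6 CPM, as after GRP alone (-0.01 ± 0.035, edgeR adjusted p = 0.93), with 103% left. Rcan3 rose against GRP (0.12 ± 0.036, edgeR adjusted p = 0.015), with 31.8% left, and that call was lost without replicate 2 or replicate 3 (0.18 and 0.088). Ppp3ca and Ppp3r1 kept 121% and 61.7% of their effects and their differences from GRP did not pass (edgeR adjusted p = 0.74 and 0.13). RC alone also moved members in 1057, as given below, and how much of these shares it accounts for was not tested.

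In counts, 3 of 9 members passed in GRP+RC against GRP in 1057 (background 25.4%), 1 of 8 in 1014-Grpr (11.8%), 0 of 9 in 1064 (0.029%, with 2 members at an unadjusted p under 0.05) and 0 of 8 in 1181-Grpr (0%, with 311 genes but no member at an unadjusted p under 0.05). In 1181-Grpr, Nfatc2 differed by 0.53 ± 0.24 in this comparison, and by 0.09 ± 0.11 without the library that went against its label. With the block, 3 passed in 1064 (20.8%), with Nfatc2 (0.49, edgeR adjusted p = 0.015) and Nfatc3 (0.19, 0.036) upwards, and 4 in 1014-Grpr (39%), with Rcan3 (0.26, 7.2e-06), Nfatc2 (0.14, 0.0046) and Nfatc3 (0.12, 0.016) upwards.

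Against mock, GRP+RC left 4 members changed in 1057 (background 44.5%), with Nfatc2 and Nfatc3 lower and Ppp3ca (0.11 ± 0.033, edgeR adjusted p = 0.0091) and Ppp3r1 (0.15 ± 0.045, 0.0076) higher, the last 2 calls being lost without replicate 2 (0.077 and 0.23). No member passed in 1014-Grpr (0.976%, with 1 member at an unadjusted p under 0.05), and 3 did with the block (17.5%), with Ppp3ca and Ppp3r1 higher and Rcan3 lower.

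RC alone also moved members in 1057, where 24.8% of genes passed. Nfatc2 was at 104, 105 and 106 CPM, below the mock libraries (log2 -0.15 ± 0.033, edgeR adjusted p = 0.0011), Nfatc3 was at 96.6, 101 and 102 CPM, also below them (-0.15 ± 0.035, 0.0019), and Rcan3 was at 99.2, 103 and 101 CPM, above them (0.11 ± 0.036, 0.023). The first 2 moved in the direction of GRP and Rcan3 against it, and the call of Rcan3 was lost without replicate 2 or replicate 3. Ppp3ca (means of 167 against 159 CPM) and Ppp3r1 (93.3 against 87.9 CPM) had all RC libraries above all mock libraries, also the direction of GRP, but did not pass. In the other 5 lines no member passed with edgeR, and none had an unadjusted p under 0.05.

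**Figure D4:**
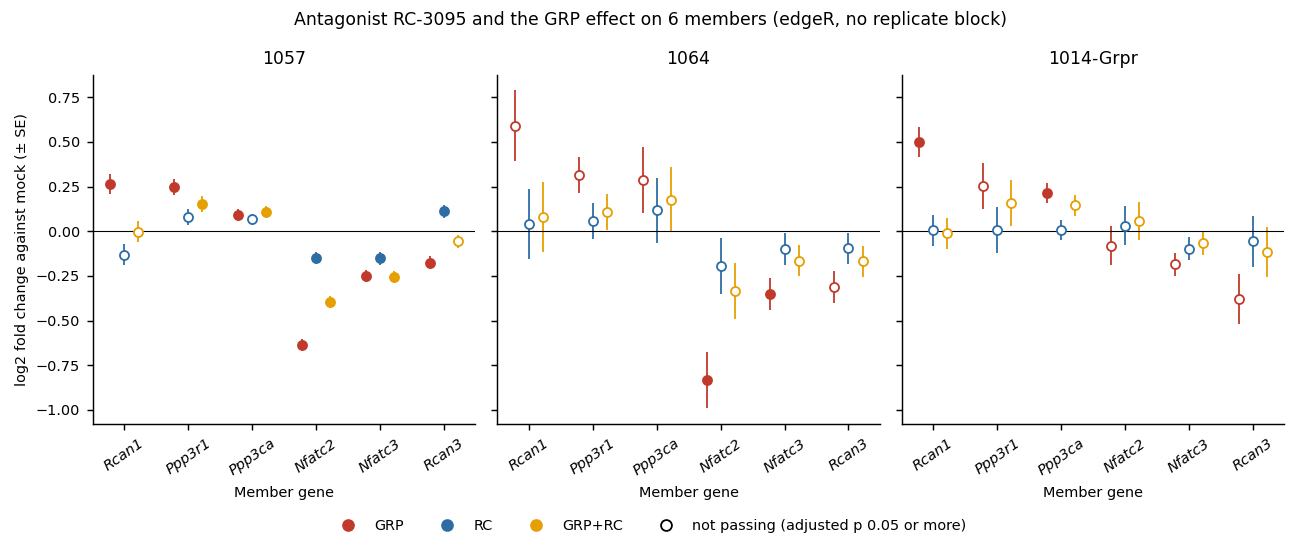
Log2 fold change against mock (± SE) of 6 members for GRP, RC and GRP+RC in 1057, 1064 and 1014-Grpr, in the fit without the replicate block, where filled points passed an adjusted p under 0.05. In 1057 the GRP+RC point of Rcan1 lies at 0, that of Nfatc2 between the GRP point and 0, and that of Nfatc3 on its GRP point.

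The wider pathway was read from 8 lists of 56 genes, written from general knowledge but with earlier results of these data known. In 1057, 17 of the 44 tested rose after GRP and 11 fell, in 1064 5 of 41 rose and 0 fell, and in 1014-Grpr 15 of 44 rose and 3 fell, beside the shares of all genes given above. With the block, 19 rose and 6 fell in 1064 and 20 rose and 10 fell in 1014-Grpr. In 1181-Grpr and the control lines 0 passed.

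Among these lists, genes known as NFAT targets in other cells had the largest median changes. This order is a description, because the list was chosen with earlier results of these data known. Only some of its 16 genes were tested, and a gene sparse at rest could pass the filter through its GRP libraries, which raises the median. Of 9 tested in 1057, 6 rose and 2 fell (median log2 change 1.83 against -0.01 for all genes), of 7 in 1064, 3 rose (1.28 against -0.02), and of 9 in 1014-Grpr, 8 rose (1.97 against -0.02). With the block, 5 of 7 rose in 1064 and 8 of 9 in 1014-Grpr. Of all genes, 52.7% passed in 1057, 6.29% in 1064 and 29% in 1014-Grpr. With the block, 43.5% did in 1064 and 53.8% in 1014-Grpr. Several of them are immediate-early genes that answer other pathways as well. Egr3, an immediate-early zinc finger factor, rose from 12.8 ± 0.92 CPM at rest to 52.8 ± 3.1 CPM in 1057 (SD, n = 3) (log2 2.07, edgeR adjusted p = 2.9e-10), and by 1.77 in 1064 and 2.65 in 1014-Grpr. The orphan nuclear receptor Nr4a1 rose by 2.89, 2.66 and 1.49 in 1057, 1064 and 1014-Grpr. Its relative Nr4a3 rose by 6.23 in 1057 and 4.55 in 1014-Grpr, and the 3.18 in 1064 passed only with the block (edgeR adjusted p = 0.070 and 0.0013).

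Egr2 rose by 0.58 in 1057 and 3.53 in 1014-Grpr. Ptgs2, the inducible cyclooxygenase, stayed sparse, with at most 4 counts in a mock library of 1057 and 20 to 28 after GRP, and at most 2 counts and 16 to 62 in 1014-Grpr (edgeR adjusted p = 1.5e-06 and 0.00080). Spp1 (osteopontin) rose by 1.83 in 1057 and 0.73 in 1014-Grpr. F3 (tissue factor) rose by 1.28 in 1064 and 0.84 in 1014-Grpr and fell by 0.21 in 1057. Tnf passed in the mean over the 4 lines (edgeR adjusted p = 0.00072), with at most 27 counts in any mock or GRP library of 1057, 1064 and 1014-Grpr.

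The calcium pump genes Atp2b1 and Atp2a2 rose in 1057, 1064 and 1014-Grpr. Atp2b1, which exports calcium across the plasma membrane, rose from 90.1 to 93.5 CPM at rest to 210 to 213 CPM in 1057 (log2 1.23, edgeR adjusted p = 2.7e-21), and by 1.46 in 1064 and 1.07 in 1014-Grpr. Atp2a2, which refills the endoplasmic reticulum, rose by 0.73, 0.84 and 0.88. Counted over the list of pumps, 3 of 3 tested rose in 1057, 2 of 3 in 1064 and 2 of 4 in 1014-Grpr, where 52.7%, 6.29% and 29% of all genes passed, and with the block 2 of 3 and 3 of 4 rose in the last 2 lines, where 43.5% and 53.8% did. Atp2a3 passed in the mean over 4 lines (1.09, edgeR adjusted p = 0.040).

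Release and entry genes went the other way in 1057, where 5 of 8 fell and 0 rose, a share near the 52.7% of all genes that passed, among them the store-operated channel subunit Orai3 (log2 -0.26, edgeR adjusted p = 0.00013), which also fell in 1014-Grpr (-0.24, 0.035). In 1014-Grpr 1 of 8 rose and 1 fell, and in 1064 0 of 8 passed, where 29% and 6.29% of all genes passed. With the block 1 rose and 4 fell in each of these lines, where 53.8% and 43.5% of all genes passed. Calmodulin-dependent enzymes were mixed, with 1 up and 3 down of 7 in 1057 and 1 up and 2 down of 6 in 1014-Grpr. Of all genes, 52.7% and 29% passed there. With the block, 2 were up and 2 down of 6 in 1064 and 1 up and 4 down of 6 in 1014-Grpr, beside 43.5% and 53.8% of all genes. Without the block, Camk2d rose by 0.84 and 1.46 and Camk2g fell by 0.14 and 0.26 in 1057 and 1014-Grpr.

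Kinases that return phosphates to NFAT had small differences. In 1057, Gsk3b (0.26) and Csnk1e (0.12) rose and Dyrk2 fell by 0.12, of 7 tested, and in 1014-Grpr 2 of 7 rose, Dyrk2 among them (0.39, edgeR adjusted p = 0.0037). In 1064 0 of 7 passed, and with the block 4 of 7 rose there and 5 of 7 in 1014-Grpr, beside 43.5% and 53.8% of all genes. Of the proteins that bind calcineurin or its inhibitors, Fkbp1a, the target of FK506, rose by 0.18 in 1057 and 0.29 in 1014-Grpr, 2 of 5 and 1 of 5 rising in these lines, and with the block 2 of 5 rose in 1064 and 1 rose and 1 fell in 1014-Grpr. Of the remaining family members, Ppp3cc rose by 0.14 in 1057 (edgeR adjusted p = 0.040), 1 of 2. Beside these counts without the block, 52.7% of all genes passed in 1057, 6.29% in 1064 and 29% in 1014-Grpr.

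With RC added to GRP, 7 of 44 list genes rose and 9 fell against GRP in 1057, and 0 of 44 rose and 12 fell in 1014-Grpr, beside 25.4% and 11.8% of all genes passing. Camk2d fell by 0.61 and 1.08 in these lines, Atp2b1 by 0.50 and 0.88, Nr4a1 by 0.40 and 1.15 and Nr4a3 by 0.67 and 2.16. In 1014-Grpr minus 1014-Ctrl, the GRP effect passed upwards for 10 of 45 list genes and downwards for 1, where 13.6% of all genes passed, among them Egr3 (2.76), Nr4a1 (1.78), Atp2b1 (0.99) and Camk2d (1.6). The mock library of 1014-Ctrl that went against its label enters these differences, which are not given without it. For the NFAT targets the median was 2.78 for the difference (10 tested), 1.97 for GRP in 1014-Grpr (9 tested) and -0.66 for GRP in 1014-Ctrl (7 tested).

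**Figure D5:**
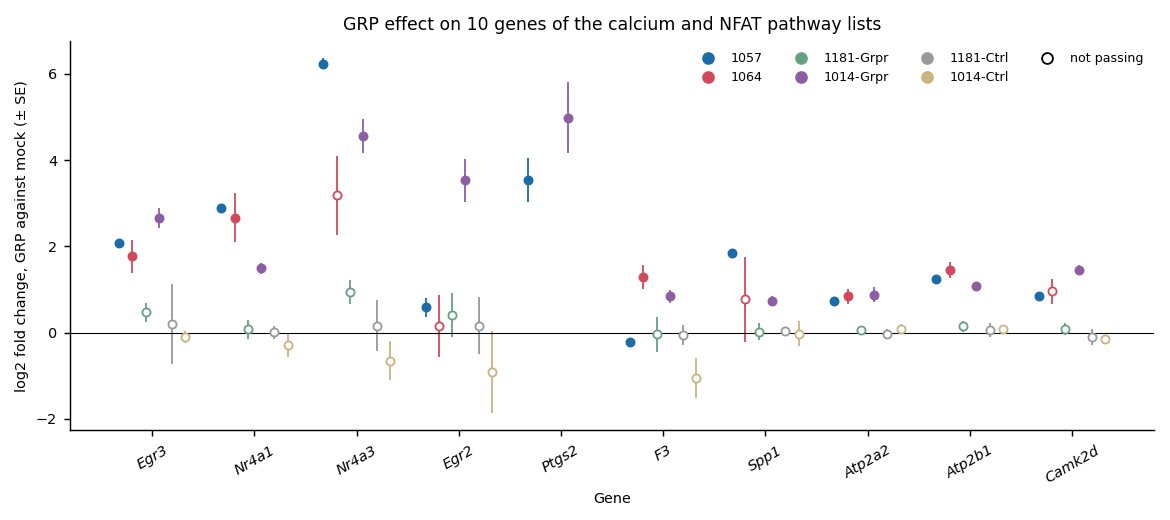
Log2 fold change of GRP against mock (± SE) for 10 genes of the pathway lists, a point per line, where filled points passed an adjusted p under 0.05 and a gene is missing where it did not pass the filter on low counts. Egr3, Nr4a1, Atp2a2 and Atp2b1 are filled in 1057, 1064 and 1014-Grpr, and points of 1181-Grpr and the control lines are open.

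The genes whose log2 CPM, taken as the difference from the mock mean of each line, followed that of Rcan1 most closely over the 24 line and treatment means were Uhrf1bp1l (Pearson r = 0.980), Wsb1 (0.949), Serinc1 (0.947), Esyt1 (0.947) and Phf10 (0.946), among 11947 genes. By Spearman's rank, 0 of these 5 were among the 5 highest. Of the members, Ppp3r1 (0.875) and Ppp3ca (0.816) were on the same side and Rcan3 (-0.912), Nfatc3 (-0.833) and Nfatc2 (-0.802) on the other. The 6 mock means are 0 by construction, all treatments of a line share its mock libraries, and the 2 libraries that went against their labels are included, so these values are a description.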

How the data were processed

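The authors made libraries with a stranded polyA kit, read them as 100-base pairs and aligned them with STAR to GRCm38.p5 (GENCODE m13), with FastQC 0.11.5 among their tools, and deposited raw counts per gene and TPM values per gene for each library. How STAR's counting used strand and how TPM was derived are not given in the sources used here. Positions are from GENCODE M21 on the same assembly.

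Counts were tested in R 4.3.3 with edgeR 4.0.16 (filterByExpr, TMM, quasi-likelihood test with robust fit), in 1 fit per line of 12 libraries, in 48 libraries for the 4 GRPR lines and in 24 for line pairs and control lines. A gene passed at a Benjamini-Hochberg adjusted p under 0.05 over all genes tested. SE was taken from the log2 fold change and the F statistic. CPM per library used TMM over all 72 libraries, and TPM served levels between genes. Floors of 3 counts cover counting error only. The scripts were tested on simulated data. Replicates differed beyond sampling noise (smallest chi-square per degree of freedom 2.44).

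Groups and replicate numbers come from the labels. The correlation of same-numbered GRP and mock libraries' deviations was 0.642 to 0.772 in 1064, 0.485 to 0.617 in 1014-Grpr, 0.617 to 0.815 in 1181-Grpr, 0.834 to 0.915 in 1181-Ctrl, 0.0939 to 0.280 in 1014-Ctrl and 0.0154 to 0.0857 in 1057, so numbers were taken to pair libraries in the first 4 lines.

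The members and lists were chosen with earlier results of these data known. All members are named. List genes are named that passed GRP against mock in 1 direction in at least 2 of the 4 GRPR lines, otherwise the 3 with the largest change among those passing in 1057, and those passing in the mean over 4 lines with an absolute log2 value above 1. Alternatives were DESeq2 1.42.0, RLE scaling, no filter, 1 fit of 72 libraries, the block, each replicate left out, the 2 libraries left out, 1181-Grpr left out of the mean (chosen after seeing the data), a log2 size threshold of 1, and limma 3.58.1 on log2(TPM + 0.5). 1 of the lists that enter the totals over the pathway is not reported here on its own.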

Additional observations from a re-analysis of the deposited data

Results flagged for a closer look

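The effect of GRP on Rcan1 differed between the 1014 line with and without the transfected receptor, by a log2 value of 0.80 ± 0.22 (edgeR interaction term, adjusted p = 0.018). Rcan1 was higher in 3 of 3 GRP libraries than in every mock library of 1014-Grpr. In 1014-Ctrl, 1 of the 3 mock libraries, the one whose Grpr and Ddx3y counts went against its label, had Rcan1 at 34.7 CPM, above the 19.4 to 19.8 CPM of the GRP libraries, and this library enters the difference. Without it and the other library of this kind the difference was 0.46 ± 0.11 (edgeR adjusted p = 0.0049).
It missed the threshold when replicate 1, 2 or 3 of both lines was left out, with values of 1.04, 0.35 and 0.96 (edgeR adjusted p = 0.074, 0.060 and 0.097).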

How the results depend on the processing

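Of 265 refits of the 27 member fold changes that passed, 217 kept the call, 48 lost it and 0 changed sign. Of 240 recounts of the 21 counts of members passing, 189 stayed within 1.5 times. The others follow, and where no cause is given it was not tested. With the replicate block, 6 members passed for GRP in 1064 (2 without it) and 6 in 1014-Grpr (2), 3 for GRP+RC against GRP in 1064 (0) and 4 in 1014-Grpr (1), 7 for GRP+RC against mock over the 6 lines (4), 1 each in 1181-Grpr minus 1057 (0) and 1014-Grpr minus 1057 (0), 4 in 1014-Grpr minus 1014-Ctrl (1) and 1 in the resting 1181 comparison (0). The block moved no other count by over 1.5 times. In the resting comparison the block was the replicate number shared between lines, and whether such libraries belong together was not tested. With 1 fit of 72 libraries, where lines share 1 estimate of the spread, 1 member passed for GRP in 1057 (6), 4 in 1064 and 1 in 1014-Grpr, 0 for GRP+RC against GRP in 1057 (3) and 1014-Grpr, 0 for RC (3) and for GRP+RC (4) against mock, and 1 in the resting 1181 comparison. With DESeq2, 5 passed for GRP in 1064, 4 in 1014-Grpr, 2 in 1014-Grpr minus 1014-Ctrl and 1 in the resting 1181 comparison. Without a filter on low counts 1 passed for GRP in 1064 and 1 in 1014-Grpr, and by limma on TPM 2 in 1014-Grpr minus 1014-Ctrl. Without the 2 libraries that went against their labels, 1 passed in 1181-Grpr minus 1057, 1 in 1014-Grpr minus 1057 and 1 in the resting 1181 comparison, and with the block besides, 4, 2 and 1 in these, 1 in 1064 minus 1057 (0) and 5 in 1014-Grpr minus 1014-Ctrl. With the log2 size threshold 0 members passed in any comparison named here. Leaving out 1 replicate gave 0 to 1 for GRP in 1064, 1 to 2 in 1014-Grpr, 1 to 2 for GRP+RC against GRP in 1014-Grpr, 2 to 5 in the mean over 4 lines (5), 0 to 1 in 1014-Grpr minus 1014-Ctrl, 0 to 1 in the resting 1181 comparison and 2 to 4 for GRP+RC against mock. Rcan2, with at most 8 counts in a library, and Nfatc4, with at most 36, were too sparse for a statement in most lines. By Spearman's rank, 0 of the 5 genes most like Rcan1 were the same.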
